A study of Mus musculus with 8 samples.

Results

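Hepcidin and the genes that handle iron were followed in the livers of 8 male db/db mice by RNA-Seq. They were the 10 genes Hamp, Hamp2, Tfrc, Tfr2, Trf, Fth1, Ftl1, Slc40a1, Bmp6 and Hfe, which were chosen by symbol and were all found among the 21532 genes of the count table. All 10 passed the filter on low values (a mean normalized read count of at least 10 over the 8 mice) and were tested together with the other genes, 15989 in all. All mice of both groups carried the db/db genotype, in which the leptin receptor does not function and obesity with diabetes develops, on a C57B/6J background. The 4 control mice and the 4 AF1 peptide-treated mice were 8 weeks old when retro-orbital injections of control or AF1 peptide began, and these were given at 5 mg/kg, 2 in each week, over 5 weeks. AF1 peptide is derived from a part of the estrogen receptor ERα, with short sequences deleted, and is joined to a labeled TAT sequence that carries it into cells. Pieces of frozen whole liver were used, with 1 library per mouse, and no lean or female mice were part of the comparison.

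Hepcidin is a small peptide hormone that hepatocytes make and release into the blood. It binds ferroportin, the iron exporter encoded by Slc40a1, and causes it to be taken in and degraded, so that less iron leaves gut cells and macrophages. Hepatocytes adjust hepcidin through the BMP and SMAD pathway, in which Bmp6 from sinusoidal endothelial cells is a main ligand and Hfe and transferrin receptor 2 report the iron bound to transferrin, and through IL-6 and STAT3 in inflammation. Ferritin (Fth1 and Ftl1) stores iron and transferrin receptor 1 (Tfrc) takes up transferrin-bound iron, and both are also controlled after transcription by iron regulatory proteins. For ferritin this acts on translation, which a count of mRNA does not show.

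The mouse has a pair of hepcidin genes. Hamp (chr7:30942368-30944032) encodes the active hormone and Hamp2 (chr7:30922372-30924681) a close relative, both on the minus strand of GRCm38 and 17.7 kb apart. GRCm38 coordinates are those of the reference annotation used here (GENCODE M21), whereas the submitters' notes name the later build mm39. Their coding sequences were identical at 233 of 249 bases (93.6%), and their promoters at 227 of 253 aligned positions (89.7%). The 120 bases before each RefSeq transcription start are shown 5′ to 3′ (RefSeq, GRCm38.p6), because the BMP and STAT3 pathways named above act on this region, with matches to GGCGCC and TTCNNNGAA in capitals. The Hamp2 start used is that of RefSeq and of 2 of its 3 GENCODE transcripts, and the other GENCODE transcript begins 500 bases upstream, so that the Hamp2 window lies inside the gene span given above. For Hamp the GENCODE start lies 3 bases upstream of that of RefSeq.
Hamp, chr7:30944030-30944149 (minus strand): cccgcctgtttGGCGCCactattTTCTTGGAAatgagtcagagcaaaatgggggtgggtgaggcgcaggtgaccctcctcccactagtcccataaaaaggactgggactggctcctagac
Hamp2, chr7:30924182-30924301 (minus strand): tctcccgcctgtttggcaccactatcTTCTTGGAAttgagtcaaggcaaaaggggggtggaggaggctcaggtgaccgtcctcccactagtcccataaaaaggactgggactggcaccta
In the 250 bases before the start, searched on both strands, GGCGCC (the core of a BMP-responsive element) matched in Hamp at bases 109 to 104 before the start and had no match in Hamp2. It matched in 9.59% of 32851 mouse promoters of that length. The STAT-type motif TTCNNNGAA matched in both genes, at bases 97 to 89 in Hamp and 94 to 86 in Hamp2, and in 7.02% of promoters. The E-box CACGTG, present in 6.02% of promoters, had no match in either gene. The printed motifs do not overlap one another, and a match describes letters, not binding.

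AF1 peptide-treated livers did not show a called change in any of the 10 genes. A gene was called at an unadjusted p value under 0.05 of limma on log2(normalized count + 1), and 0 of 10 members were called, against 6.19% of all 15989 genes (990 genes, of which 506 or 3.16% were higher and 484 or 3.03% lower, and 590 or 3.69% also differed by more than 1.3-fold). Unadjusted p values of the members ran from 0.108 to 0.803. After Benjamini-Hochberg adjustment over all genes in limma, 0 genes stayed under 0.05, and the smallest adjusted value was 0.763. DESeq2 on the recovered reads gave 3 such genes and edgeR 0. The normalized counts of the groups overlapped for all 10 members, whereas 3.9% of all genes had groups that did not overlap (2.05% with AF1 peptide higher and 1.85% with it lower). Of the 10 log2 fold changes, 5 were positive and 5 negative, with a median of 0.02 beside -0.01 for all genes.

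**Figure D1:**
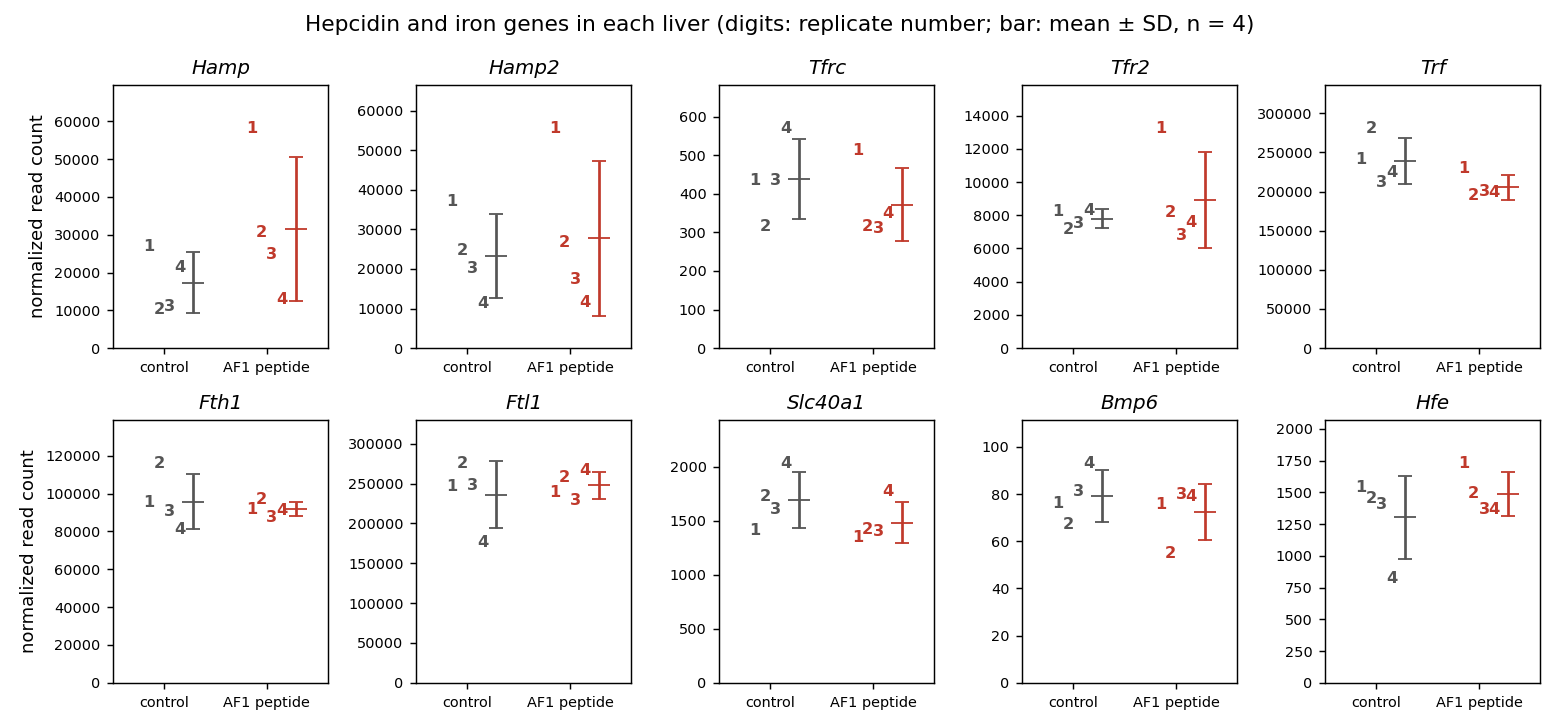
Normalized read counts of the 10 genes in each liver, on linear axes that start at 0. Digits give the replicate number of each mouse in the control group (grey) and the AF1 peptide group (red), and bars give mean ± SD (n = 4). Digits of both groups share part of their range in every panel, and AF1 peptide mouse 1 is the highest of the 8 mice for Hamp, Hamp2, Tfr2 and Hfe.

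Depth was 35260283 to 45117528 reads in control mice and 23031880 to 43978158 in AF1 peptide-treated mice, so that the least counted member, Bmp6, still had 30 to 111 reads. Mitochondrial genes took 22.6% to 34.7% of the reads in controls and 21.1% to 38.2% with AF1 peptide. AF1 peptide mouse 1 stood apart from the other 7 mice along the leading principal component, which held 39.3% of the variance of the tested genes. Its summed count of 12 Kupffer cell markers was 3707, against 8373 to 10688 in controls and 9246 to 10053 in AF1 peptide mice 2 to 4. Its summed count of 12 acute phase genes was 365574, against 195215 to 223948 in the other 7 mice. A sum gives most weight to genes with high counts, and C3 had the highest mean of that list. Between the groups, 7 of the 12 genes had positive and 5 negative log2 fold changes (median 0.12), and none was called. Control mouse 4 had the highest red blood cell signal, with a sum of 123602 against 34266 to 44723 in the other controls and 27445 to 52047 with AF1 peptide. All 10 hepatocyte markers were expressed, with sums of 2558960 to 2773440 in controls and 2081820 to 2717260 with AF1 peptide, and no marker of the hepatocyte, Kupffer cell, sinusoidal endothelial or acute phase lists was at 0 in all mice. Results are therefore also given without AF1 peptide mouse 1.

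Hamp mRNA varied widely from mouse to mouse in both groups. Its normalized counts were 26874, 10169.7, 10922 and 21455 in control mice 1, 2, 3 and 4, and 58027, 30513, 24829 and 12813.5 in AF1 peptide-treated mice 1, 2, 3 and 4. Mice 1 and 2 of the AF1 peptide group lay above every control, mouse 3 lay within the control range between control mice 4 and 1, and mouse 4 lay near the lowest controls. The mean was 17355 ± 8174 in controls and 31546 ± 19134 with AF1 peptide (SD, n = 4), a log2 fold change of 0.78 (SE 0.45) on the log2(normalized count + 1) scale. This is 1.72-fold, with a 95% interval from 0.868-fold to 3.42-fold, and the unadjusted p value of limma was 0.108 (adjusted p value 0.767). In bulk liver, fewer cells of a type and less RNA per cell cannot be told apart, for this gene and the others.

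The size of the Hamp difference depended on single mice. Without AF1 peptide mouse 1 the log2 fold change was 0.42 and did not pass the threshold. Without AF1 peptide mouse 4 it was 1.15, with an unadjusted limma p value of 0.0176, and without control mouse 1 it was 1.04, with an unadjusted limma p value of 0.0498. Hamp was therefore called when either of these mice was left out, in fits that called 7.53% and 4.29% of all genes. AF1 peptide mouse 1, which had the highest Hamp count, also had the high acute phase sum and the low Kupffer cell sum given above, and their part in its Hamp level was not tested. The IL-6 pathway genes Stat3, which relays IL-6 signals, and Socs3, its feedback inhibitor, were likewise highest in that mouse. Its Stat3 count was 1882 against 1138 to 1251 in controls, and its Socs3 count was 427 against 212 to 298 in controls. Cp (ceruloplasmin), by contrast, was lowest in that mouse, at 13002 against 23807 to 33639 in controls. These genes were named after values were seen, and any part of IL-6 signaling in the Hamp level was not tested.

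Hamp2 had a similar mean level and a similar spread and was not called either. Its normalized counts were 36974, 24622, 20209.5 and 11269.5 in control mice 1 to 4, and 55389, 26723, 17322 and 11416 in AF1 peptide-treated mice 1 to 4. Mouse 1 was the highest and mouse 4 the lowest of each group, and 3 of the 4 AF1 peptide values lay within the control range. The log2 fold change was 0.12 (SE 0.47, adjusted p = 0.971), with a 95% interval from 0.528-fold to 2.25-fold, which covers the 1.72-fold of Hamp. It turned to -0.29 without AF1 peptide mouse 1 and to -0.18 without control mouse 4, and neither fit passed the threshold.

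The balance of both hepcidin genes within a liver, which does not depend on the depth of its library, was uneven among controls and narrow among AF1 peptide-treated mice. The log2 ratio of Hamp to Hamp2 was -0.46, -1.28, -0.89 and 0.93 in control mice 1 to 4. It was 0.07, 0.19, 0.52 and 0.17 in AF1 peptide-treated mice 1 to 4. Hamp therefore had fewer reads than Hamp2 in 3 of 4 controls and more reads in 4 of 4 AF1 peptide-treated mice, while control mouse 4 had the highest ratio of all 8. The mean log2 ratio was -0.42 ± 0.96 in controls and 0.24 ± 0.20 with AF1 peptide (SD, n = 4), and the AF1 peptide values lay inside the span of the controls. These ratios are a description with no test. Of the 50-base words of the Hamp transcripts 16.6% also occur in Hamp2, and 11.2% of those of Hamp2 occur in Hamp, so part of their reads could have been exchanged in alignment.

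**Figure D2:**
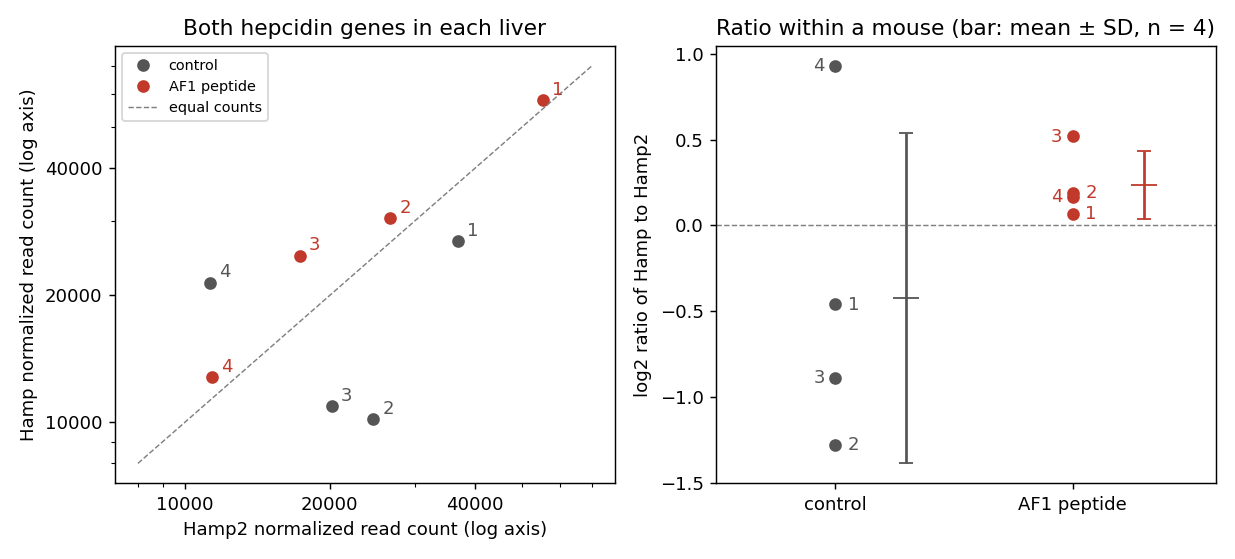
Left, normalized read counts of Hamp (vertical, log axis) and Hamp2 (horizontal, log axis) in each liver, with the dashed line at equal counts. Right, the log2 ratio of Hamp to Hamp2 in each mouse with mean ± SD (n = 4). Control ratios run from -1.28 to 0.93, and the AF1 peptide ratios from 0.07 to 0.52 lie inside that range.

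Hepcidin was the most variable mRNA of the set. Over the 8 mice the coefficient of variation was 63.8% for Hamp and 57.9% for Hamp2, and 10.8% to 24.3% for the other 8 members. Among the 3255 genes that averaged 1000 normalized counts or more, whose median coefficient of variation was 12.7%, Hamp lay at percentile 98.7 and Hamp2 at percentile 98.4. The highest mouse exceeded the lowest 5.71-fold for Hamp and 4.91-fold for Hamp2, against 1.43-fold to 2.11-fold for the others. Within groups the coefficient of variation of Hamp was 47.1% in controls and 60.7% with AF1 peptide, so its spread was present in both groups.

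**Figure D3:**
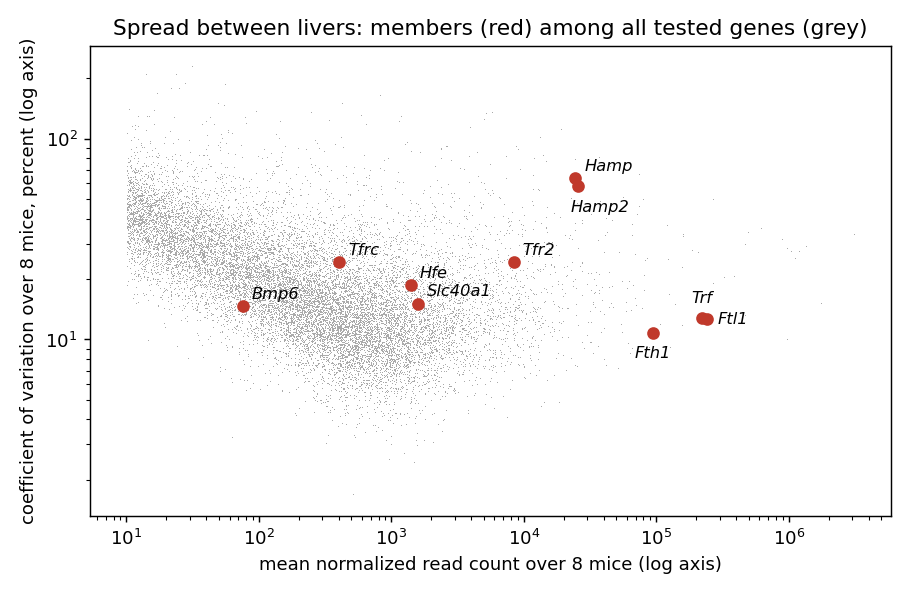
Coefficient of variation over the 8 mice in percent (vertical, log axis) against mean normalized read count (horizontal, log axis), with all 15989 tested genes in grey and the 10 members in red. Hamp and Hamp2, at 63.8% and 57.9%, lie above most genes of similar count, and the ferritin genes and Trf, at 10.8% to 12.8%, lie among them.

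Set per kilobase of exon, the members spanned from storage and carrier mRNAs at the top to the BMP ligand at the bottom. The divisor was the union of exons of all annotated transcripts of a gene, 0.41 kb for Hamp, 0.583 kb for Hamp2 and 3.469 kb for Fth1. The order therefore depends on the annotation as well as on the counts. Before this division the mean count of Fth1 was 93750, above the 24450 of Hamp and the 25491 of Hamp2. Mean levels in normalized counts per kilobase were 180645 for Ftl1, 66971 for Trf, 59635 for Hamp, 43723 for Hamp2 and 27025.0 for Fth1. They were 1927 for Tfr2, 390.5 for Hfe, 176 for Slc40a1, 65.4 for Tfrc and 19.4 for Bmp6. Ranges over the 8 mice overlapped for 3 of the 9 neighbouring pairs in this order, namely Trf with Hamp, Hamp with Hamp2 and Hamp2 with Fth1, and these neighbours did not differ beyond their spread. The other 6 pairs did not overlap in range. Ftl1 was above Trf and Fth1 above Tfr2 in 8 of 8 mice. The 10 genes together took 1.72% of all reads. Counts of Ftl1 and Trf are uncertain by shared sequence, since 50.9% of the 50-base words of Ftl1 occur in other genes such as its processed copies Ftl1-ps1 and Ftl1-ps2, and 59.4% of those of Trf occur in others such as the overlapping model Gm20425. Ftl1-ps1 itself was listed at 10118 to 15776 normalized counts, and whether these reads came from Ftl1 was not tested.

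Iron-responsive elements, the hairpins that iron regulatory proteins bind, were looked for because they join storage, export and uptake in the control of translation and mRNA decay. The search asked for an unpaired C, 5 bases of stem and the loop CAGTG with 1 further base. After the loop, 5 bases had to pair with the first 5. Whole protein-coding transcripts were searched on the sense strand, coding parts included. A match was found in 4 of the 10 members and in 294 of 21877 protein-coding genes (1.34%). All matches of the members lay in untranslated regions, whereas those of the 294 genes could lie anywhere in the transcript. Each is shown 5′ to 3′ with its loop, CAGTG and the base that follows, in capitals (GRCm38).
Fth1, 5′ UTR, chr19:9982731-9982760 (plus strand): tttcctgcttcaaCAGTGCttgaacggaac
Ftl1, 5′ UTR, chr7:45459779-45459808 (minus strand): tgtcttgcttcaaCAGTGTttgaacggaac
Slc40a1, 5′ UTR, chr1:45925465-45925494 (minus strand): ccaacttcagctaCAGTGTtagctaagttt
Tfrc, 3′ UTR, chr16:32631218-32631247 (plus strand): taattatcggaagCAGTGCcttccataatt
Tfrc, 3′ UTR, chr16:32631597-32631626 (plus strand): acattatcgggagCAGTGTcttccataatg
Tfrc, 3′ UTR, chr16:32631662-32631691 (plus strand): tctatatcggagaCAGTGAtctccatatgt
Tfrc, 3′ UTR, chr16:32631709-32631738 (plus strand): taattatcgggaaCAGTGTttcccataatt
The ferritin and ferroportin matches lie in the 5′ UTR, where a bound protein is known to block translation. The 4 Tfrc matches lie in the 3′ UTR, where a bound protein is known to protect the mRNA from decay.

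Ferritin and transferrin mRNAs were abundant and varied little between mice. Fth1 (chr19:9980598-9985098), the ferritin heavy chain that oxidises iron for storage, had 95262, 115829, 90502 and 81176 normalized counts in control mice 1 to 4. In AF1 peptide-treated mice 1 to 4 it had 91808, 96740.2, 87584 and 91098. All 4 AF1 peptide values lay within the control range. Fth1 had a log2 fold change of -0.05 (SE 0.19, adjusted p = 0.972), with a 95% interval from 0.722-fold to 1.29-fold, and it turned to 0.05 without control mouse 2.

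Ftl1 (chr7:45457944-45459884), the ferritin light chain, was also within the control range in every AF1 peptide-treated mouse. Its normalized counts were 246632, 275071, 247156 and 175670 in control mice 1 to 4 and 238908, 257712, 229018 and 266347 in AF1 peptide-treated mice 1 to 4. Control mouse 4 was the lowest of all 8 for both ferritin genes. The log2 fold change of Ftl1 was 0.09 (SE 0.27, adjusted p = 0.960), with a 95% interval from 0.703-fold to 1.61-fold. It was -0.05 without control mouse 4. The ratio of Fth1 to Ftl1 counts within a liver was 0.409 ± 0.0421 in controls and 0.371 ± 0.0197 with AF1 peptide (SD, n = 4), described with no test, and ran from 0.342 to 0.462 over the 8 mice.

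Trf (chr9:103204001-103230444) encodes transferrin, the blood carrier of iron that hepatocytes secrete. Counts of Trf were 240313, 280172, 212186 and 223782 in control mice 1 to 4 and 229510, 194909, 199640 and 198249 in AF1 peptide-treated mice 1 to 4. AF1 peptide mice 2, 3 and 4 lay below every control, and mouse 1 lay within the control range. Trf had a log2 fold change of -0.21 (SE 0.25, adjusted p = 0.861), with a 95% interval from 0.589-fold to 1.26-fold. Without AF1 peptide mouse 1 it was -0.27, which did not pass the threshold.

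Neither receptor for transferrin was called with all 8 mice. Tfrc (chr16:32608920-32632794), the transferrin receptor of most cells, had 434, 316, 433 and 569 normalized counts in control mice 1 to 4 and 511, 316, 311 and 348 in AF1 peptide-treated mice 1 to 4. AF1 peptide mice 2 and 3 lay just below the lowest control and mouse 4 above that control alone, while mouse 1 was the second highest of all 8. Tfrc had a log2 fold change of -0.24 (SE 0.20, adjusted p = 0.825), with a 95% interval from 0.621-fold to 1.16-fold. Without AF1 peptide mouse 1 it was -0.40, or 0.757-fold, and the unadjusted limma p value became 0.0351, in a fit that called 10.1% of all genes. Tfrc was the only one of the 10 members called in that fit. The highest Tfrc count was that of control mouse 4, the liver with the high red blood cell sum. Red blood cell precursors express Tfrc strongly, and the part of such cells in this value was not tested.

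Tfr2 (chr5:137569840-137587481), a hepatocyte receptor that takes part in sensing transferrin-bound iron, was steady except in 1 mouse. Normalized counts of Tfr2 were 8216, 7129, 7529.9 and 8286 in control mice 1 to 4 and 13204, 8162, 6769.8 and 7539 in AF1 peptide-treated mice 1 to 4. AF1 peptide mouse 1 lay far above the other 7 mice, AF1 peptide mouse 3 just below the lowest control, and the others within the control range. Tfr2 had a log2 fold change of 0.15 (SE 0.19, adjusted p = 0.875), with a 95% interval from 0.830-fold to 1.48-fold, and it turned to -0.06 without AF1 peptide mouse 1. Its coefficient of variation was 7.16% in controls and 32.7% with AF1 peptide. The log2 ratio of Tfrc to Fth1, a pair that iron regulatory proteins are known to move in opposite directions at the level of protein, was -7.79 ± 0.56 in controls and -7.98 ± 0.34 with AF1 peptide (SD, n = 4), with no test.

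Hfe (chr13:23702034-23710854), an MHC-like protein that binds transferrin receptors and supports hepcidin expression, was low in 1 control. Hfe counts were 1540.2, 1449.6, 1403 and 819.9 in control mice 1 to 4 and 1727, 1490.4, 1363 and 1365 in AF1 peptide-treated mice 1 to 4. All 4 AF1 peptide values lay above the control mean of 1303 ± 327 (SD, n = 4), which control mouse 4 pulled down, and only mouse 1 lay above every control. Hfe had a log2 fold change of 0.22 (SE 0.19, adjusted p = 0.823), with a 95% interval from 0.876-fold to 1.56-fold. It was 0.02 without control mouse 4.

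Slc40a1 (chr1:45908068-45926523) encodes ferroportin, which in liver is found in Kupffer cells and hepatocytes. Normalized counts of Slc40a1 were 1407.5, 1726, 1602 and 2029 in control mice 1 to 4 and 1347.5, 1415.5, 1402 and 1768 in AF1 peptide-treated mice 1 to 4. AF1 peptide mice 1, 2 and 3 lay close together near the lowest control, whereas mouse 4 lay in the upper part of the control range. Slc40a1 had a log2 fold change of -0.18 (SE 0.13, adjusted p = 0.792), with a 95% interval from 0.719-fold to 1.08-fold. AF1 peptide mouse 1, with the lowest Kupffer cell sum, also had the lowest Slc40a1 count, and the part of Kupffer cells in it was not tested.

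Bmp6 (chr13:38345107-38500302), the ligand that sinusoidal endothelial cells release when liver iron is high, was the least abundant member. Bmp6 counts were 75.8, 67.0, 81.1 and 93.0 in control mice 1 to 4 and 75.6, 54.8, 79.9 and 79.0 in AF1 peptide-treated mice 1 to 4. Control mouse 4 was the highest and AF1 peptide mouse 2 the lowest, and 3 of the 4 AF1 peptide values lay within the control range. Bmp6 had a log2 fold change of -0.14 (SE 0.18, adjusted p = 0.884), with a 95% interval from 0.689-fold to 1.20-fold. The summed count of 12 sinusoidal endothelial markers was 9384 to 10534 in controls and 8854 to 11809 with AF1 peptide, so that the groups overlapped.

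**Figure D4:**
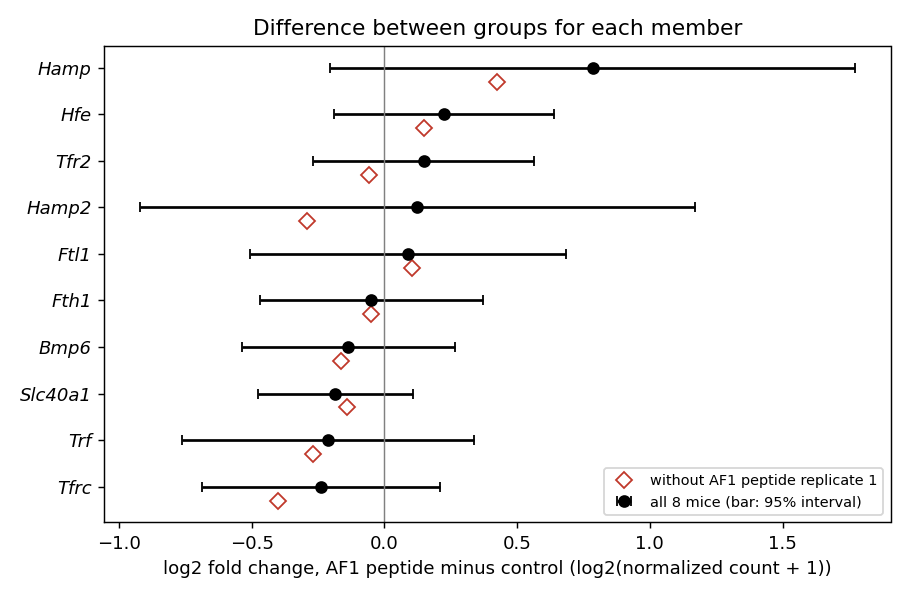
Log2 fold change of each member, AF1 peptide minus control, on the log2(normalized count + 1) scale. Black points are from all 8 mice with 95% intervals of limma, and red diamonds leave out AF1 peptide mouse 1. Every interval includes 0, and the diamonds of Hamp2 and Tfr2 lie on the other side of 0 from the black points.

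Without AF1 peptide mouse 1 the log2 fold changes of the members not yet given for that fit were -0.05 for Fth1, 0.10 for Ftl1, -0.14 for Slc40a1, -0.16 for Bmp6 and 0.15 for Hfe, and none of these was called.

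The highest and lowest values of the set lay in 5 of the 8 mice. AF1 peptide mouse 1 was the highest of the 8 mice for 4 members (Hamp, Hamp2, Tfr2 and Hfe) and the lowest for 1 (Slc40a1). Control mouse 4 was the lowest for 4 members (Hamp2, Fth1, Ftl1 and Hfe) and the highest for 3 (Tfrc, Slc40a1 and Bmp6). Control mouse 2 was the highest for 3 members (Trf, Fth1 and Ftl1) and the lowest for Hamp. AF1 peptide mice 2 and 3 each held 2 of the lowest values (Trf and Bmp6, and Tfrc and Tfr2). The other 3 mice held no highest or lowest value.

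Whether members moved together over the 8 mice was asked in 8 correlations of log2(normalized count + 1). Hamp and Hamp2 had a Pearson r of 0.607 (exact permutation p = 0.109, adjusted 0.291) and a Spearman rho of 0.571 (exact permutation p = 0.151, adjusted 0.302). The r was 0.431 without the 2 mice farthest from the median of Hamp2, and 0.263 without AF1 peptide mouse 1. Hamp and Tfr2 gave the highest r, 0.759 (exact permutation p = 0.0193, adjusted 0.155), with a rho of 0.619 (exact permutation p = 0.115, adjusted 0.302). Without the 2 mice farthest from the median of Tfr2 (AF1 peptide mice 1 and 3) that r was 0.923, whereas without AF1 peptide mouse 1 alone it was 0.425. None of the 8 had an adjusted p value under 0.05.

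No relation of Hamp with its BMP ligand or with SMAD target genes passed the test in these livers. The r of Hamp with Bmp6 was -0.13 (exact permutation p = 0.764, adjusted 0.856) and rho was -0.33 (exact permutation p = 0.428, adjusted 0.571). The r was 0.145 without the 2 mice farthest from the median of Bmp6. Bmp6 and Hamp were thus not seen to rise together over these mice. With Id1, a direct SMAD target, r was 0.0754 (exact permutation p = 0.856, adjusted 0.856) and rho 0.0952 (exact permutation p = 0.840, adjusted 0.840), with an r of -0.15 without the 2 farthest mice and 0.575 without AF1 peptide mouse 1 (exact permutation p = 0.177, unadjusted). For Smad7, an inhibitory SMAD, and for Hfe the sign of r turned without AF1 peptide mouse 1. With Smad7, r was 0.356 (exact permutation p = 0.387, adjusted 0.619) and rho 0.190 (exact permutation p = 0.665, adjusted 0.760), and r was 0.123 without the 2 farthest mice and -0.12 without AF1 peptide mouse 1. With Hfe, r was 0.250 (exact permutation p = 0.570, adjusted 0.759) and rho 0.524 (exact permutation p = 0.197, adjusted 0.315), and r was 0.443 without the 2 farthest mice and -0.07 without AF1 peptide mouse 1.

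Slc40a1, which is also found in hepatocytes, and Bmp6 were each set against a marker score, of Kupffer cells and of sinusoidal endothelial cells. The score was the mean log2(normalized count + 1) of the listed markers, not their summed count. Slc40a1 and the Kupffer cell markers had an r of 0.601 (exact permutation p = 0.104, adjusted 0.291) and a rho of 0.619 (exact permutation p = 0.115, adjusted 0.302). The r was 0.496 without the 2 farthest mice and 0.773 without AF1 peptide mouse 1 (exact permutation p = 0.0345, unadjusted). Bmp6 and the sinusoidal endothelial markers had an r of 0.415 (exact permutation p = 0.292, adjusted 0.584) and a rho of 0.738 (exact permutation p = 0.0458, adjusted 0.302). The r was 0.759 without the 2 farthest mice.

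The genes whose counts followed Hamp most closely were chosen from the 12433 genes that averaged 50 normalized counts or more, by Pearson r over the 8 mice. The highest were Kansl1 (r = 0.969), Nup155 (0.963), Mtss1 (0.960), Ppp2r5e (0.943) and Mtfp1 (0.940). The lowest were Efnb1 (-0.996), Ddit4l (-0.969), Gm51444 (-0.949), Clec4n (-0.943) and Sprr1a (-0.940). All 10 were chosen for these values among many genes, so no p value is given, and all 10 had their own highest or lowest count in AF1 peptide mouse 1. Their absolute r without that mouse stayed between 0.890 and 0.994. Neither Hamp2 nor another member was among them by construction, since members were left out.

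Beyond the members, 102 other genes of iron handling were taken in 7 lists, and 97 of them were tested. The call threshold was passed by 4 (4.12%), 1 higher and 3 lower, against 6.19% of all genes. Of the 97 log2 fold changes, 38 were positive and 59 negative, with a median of -0.06 beside -0.01 for all genes. The groups did not overlap for 2 of the 97 (Smad1 and Tgfbr1, both lower with AF1 peptide), against 1.85% of all genes for that direction.

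Fdxr was the gene called higher. It encodes ferredoxin reductase, which passes electrons for iron-sulfur cluster assembly and steroid synthesis in mitochondria. Fdxr counts were 2053, 1763, 1875 and 1572 in control mice 1 to 4 and 3475, 2489, 2452 and 1998 in AF1 peptide-treated mice 1 to 4. Mice 1, 2 and 3 of the AF1 peptide group lay above every control and mouse 4 within their upper range. The log2 fold change was 0.50 (SE 0.16, unadjusted p value of 0.0103 in limma, adjusted p = 0.763), and it was 0.35 without AF1 peptide mouse 1, with an unadjusted limma p value of 0.0125. Fdxr kept an unadjusted p value under 0.05 when each of the 8 mice was left out in turn, but not with libraries scaled to equal totals, where its log2 fold change was 0.41. The other 22 genes of its list, which covers mitochondrial iron and iron-sulfur assembly, were not called, and the list had 11 positive and 12 negative log2 fold changes.

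Upstream of hepcidin, 2 genes of BMP signaling were called lower, 1 in each of 2 lists with 18 and 14 tested genes. Of all genes, 3.03% were called lower and 6.19% in either direction. Smad1, a SMAD protein that BMP receptors activate, had normalized counts of 222, 238, 243 and 219 in control mice 1 to 4 and 204, 195, 177 and 195 in AF1 peptide-treated mice 1 to 4. Every AF1 peptide value lay below every control, and the log2 fold change was -0.26 (SE 0.11, unadjusted p value of 0.0389 in limma, adjusted p = 0.763). Acvr2a, an activin and BMP type II receptor, had 185, 157, 188 and 206 in control mice and 151, 149.8, 161 and 138 in AF1 peptide-treated mice, which overlapped between control mouse 2 and AF1 peptide mouse 3. Its log2 fold change was -0.29 (SE 0.13, unadjusted p value of 0.0461 in limma, adjusted p = 0.763). These calls depended on which mice entered the fit: leaving out each mouse in turn kept Smad1 past the threshold in 2 of 8 fits and Acvr2a in 2 of 8. Neither passed with DESeq2 on the recovered reads, and Acvr2a did not pass without the filter or with either scaling to equal totals.

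The rest of the BMP and STAT3 branches did not pass the test. In the list of 18 ligands, receptors and inhibitors, Acvr2a was the 1 gene called, 8 log2 fold changes were positive and 10 negative, and their median was -0.05. Tgfbr1, a type I receptor of the TGF-β family, had 233 to 269 normalized counts with AF1 peptide and 270 to 325 in controls, with a log2 fold change of -0.21 (SE 0.11, adjusted p = 0.763). Bmp2, the other endothelial ligand, stood at -0.09 (SE 0.18, adjusted p = 0.925). Hjv, the BMP co-receptor hemojuvelin, stood at 0.06 (SE 0.17, adjusted p = 0.949). Tmprss6, the protease that cleaves hemojuvelin and holds hepcidin down, stood at -0.09 (SE 0.10, adjusted p = 0.865).

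Among the 14 SMAD, STAT3 and target genes, Smad1 was again the 1 gene called, 5 log2 fold changes were positive and 9 negative, and the median was -0.08. The SMAD targets Id1 and Atoh8 had log2 fold changes of 0.06 (SE 0.15, adjusted p = 0.949) and 0.07 (SE 0.18, adjusted p = 0.947). Id3, Smad6 and Smad7 had -0.07 (adjusted p = 0.895), -0.12 (adjusted p = 0.850) and -0.11 (adjusted p = 0.946). Stat3 and Socs3 had 0.12 (adjusted p = 0.886) and 0.11 (adjusted p = 0.933), and both changed sign without AF1 peptide mouse 1, to -0.05 and -0.12.

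Genes of storage, export and iron sensing had mostly negative log2 fold changes of small size, where 51.8% of all genes were negative. Markers of other cells were mostly negative too: 11 of 12 Kupffer cell genes (median -0.33, Adgre1 called lower) and 6 of 7 red blood cell genes (median -0.23, none called). So were 10 of 12 sinusoidal endothelial genes (median -0.09, Stab1 called higher). The Kupffer cell sum was low in AF1 peptide mouse 1 (3707) and within the control range in mice 2 to 4. The red blood cell sum was highest in control mouse 4 (123602 against 34266 to 44723 in the other controls). The part of these cells in the iron lists was not tested. In the list of storage, export and chaperones, 8 of 8 tested genes were negative, with a median of -0.17 and a range from -0.29 to -0.06. The 1 called was Pcbp1, a chaperone that delivers iron to ferritin, with 2499 ± 306 normalized counts in controls and 2051 ± 272 with AF1 peptide (SD, n = 4) and a log2 fold change of -0.29 (SE 0.13, unadjusted p value of 0.0455 in limma, adjusted p = 0.763). It passed the threshold in 3 of 8 fits that left out a mouse, and did not pass with equal totals, without the variance trend or with its own variance. Ceruloplasmin (Cp), the ferroxidase that hepatocytes secrete, was 13002 in AF1 peptide mouse 1 and 23807 to 33639 in the other 7 mice, so that its log2 fold change of -0.27 (SE 0.27, adjusted p = 0.844) became 0.03 without that mouse. In the iron sensing list, which holds the iron regulatory proteins Aco1 and Ireb2, 7 of 8 were negative with a median of -0.14 and none was called. The smallest p value there was that of Egln1, an oxygen- and iron-dependent enzyme that marks HIF proteins for degradation, at -0.20 (SE 0.11, adjusted p = 0.763).

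Uptake and heme genes gave no called gene. In the uptake list, 6 of 11 tested genes were positive, with a median of 0.01, and Steap4, a metalloreductase, had the smallest p value at -0.31 (SE 0.21, adjusted p = 0.789). Heme synthesis and breakdown gave 7 positive and 8 negative, with a median of -0.01. Hmox1, the heme oxygenase that frees iron from heme and that Kupffer cells express strongly, had 520 ± 113 normalized counts in controls and 389.5 ± 93.6 with AF1 peptide (SD, n = 4). Its log2 fold change was -0.42 (SE 0.21, adjusted p = 0.763), and its lowest value, 269.7, was in AF1 peptide mouse 1, the liver with the low Kupffer cell sum, whose part in it was not tested. Without that mouse the log2 fold change was -0.26 and did not pass the threshold. Hmox1 was called lower without control mouse 1 (-0.56), without AF1 peptide mouse 3 (-0.54) and with libraries scaled to equal totals (-0.51).

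**Figure D5:**
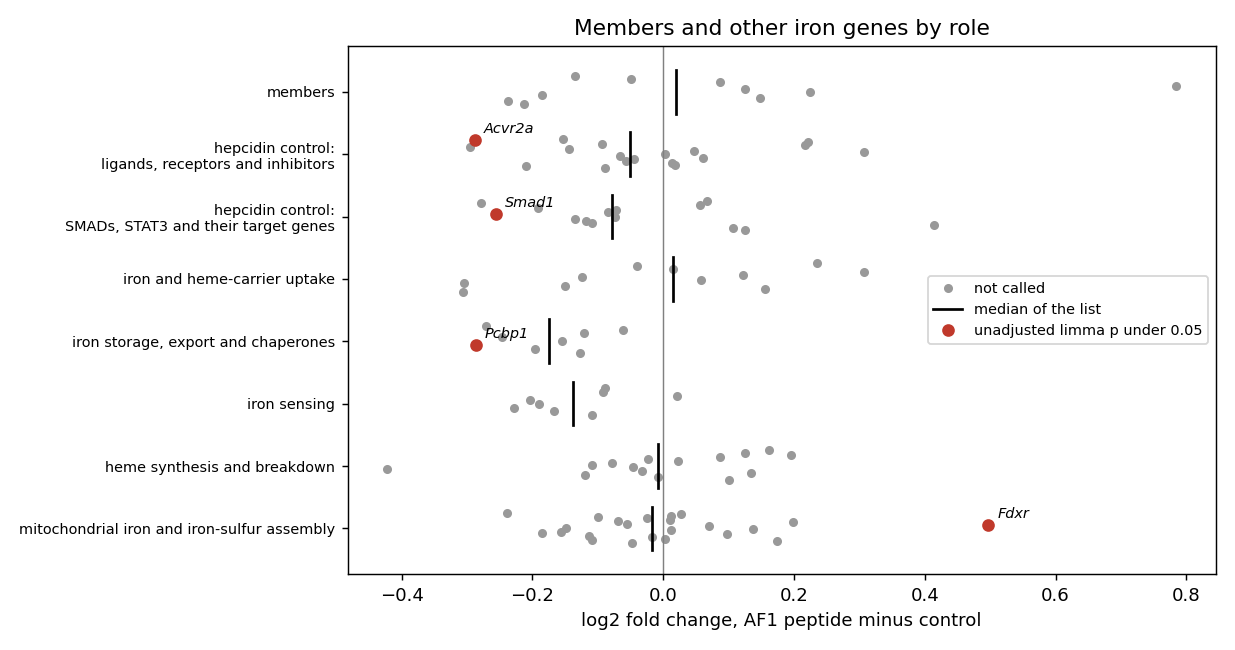
Log2 fold change, AF1 peptide minus control, of the 10 members and of the 97 tested genes of 7 iron lists, 1 point per gene, with the median of each list as a black line. Red points are the 4 genes with an unadjusted limma p value under 0.05 (Fdxr higher; Smad1, Acvr2a and Pcbp1 lower). Of the members Hamp lies farthest from 0, at 0.78.

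Leaving out AF1 peptide mouse 1 raised the share of called genes both in the lists, from 4.12%, and among all genes, from 6.19%. In that fit 12 of the 97 genes were called (12.4%, 3 higher and 9 lower), against 10.1% of all genes (4.58% higher and 5.48% lower). The genes called higher were Fdxr, Cd163 (the macrophage receptor for hemoglobin and haptoglobin, 0.54) and Bmp4 (a BMP ligand, 0.59). Those called lower were Steap4 (-0.52), Slc39a8 (a metal ion importer, -0.51), Pcbp2 (an iron chaperone, -0.40), Isca1 (-0.35), Pcbp1 (-0.34), Epas1 (the HIF2 alpha subunit, -0.29), Smad1 (-0.28), Glrx5 (-0.25) and Egln1 (-0.25). Isca1 and Glrx5 act in iron-sulfur assembly. Cd163 is made by Kupffer cells, and its log2 fold change with all 8 mice was 0.23 and was not called.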

How the data were processed

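Liver RNA was isolated with TRIzol and 1 stranded mRNA library was made per mouse. The authors trimmed reads with Trim Galore 0.6.7, aligned them with HISAT2 (build mm39 in the submitters' notes), sorted them with SAMtools 1.17 and counted them with GenomicAlignments. Which annotation was counted, whether strand was used and which tool normalized the counts are not given in the sources used here. The deposited values are normalized read counts, a signal equal to whole reads divided by 1 size factor per library: 100% of 172256 values came out whole (within 0.01 reads), and the factors match the median-of-ratios method. Library totals were 23031880 to 45117528 reads.

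Groups came from the sample labels, which call the mice biological replicates. Log2(normalized count + 1) was tested two-sided with limma 3.58.1 (R 4.3.3, moderated variance with trend) over the 15989 genes with a mean of at least 10. The call threshold was an unadjusted p value under 0.05, as in the study's methods, and p values were also adjusted by Benjamini-Hochberg over all tested genes. The test was checked on simulated counts. These were drawn separately for each gene, so the check does not cover a mouse that stands apart over many genes. Alternatives were pseudocounts of 0.5 and 5, no filter, at least 10 in every mouse, TMM factors, equal totals with and without mitochondrial genes, no trend, own variance, a replicate block, edgeR 4.0.16, DESeq2 1.42.0, a 1.3-fold threshold for counts and each mouse left out. The members, the lists and the tests were chosen with earlier results of these data known. All members are named, as are listed genes that were called, the smallest p value of each list, and the 5 genes most and least like Hamp. Further listed genes of BMP, STAT3 and storage pathways (Bmp2, Hjv, Tmprss6, Tgfbr1, Id1, Id3, Smad6, Smad7, Atoh8, Stat3, Socs3 and Cp) were named outside that rule and after values were seen. Lengths and shared sequence came from GENCODE M21 (GRCm38) and promoters from RefSeq. Scara5, Ftmt, Epb42 and Hemgn were not analysed here, and Steap1, Cybrd1 and Ltf did not pass the filter.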

Additional observations from a re-analysis of the deposited data

Results flagged for a closer look

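Values of a group of 4 mice were marked when 1 mouse lay far from the other 3, that is, when its gap to the nearest mouse, as a share of the group's range, exceeded Dixon's 95% critical value for 4 values. Of 50 groups looked at (members, listed genes, ratios and marker sums), 6 were marked, and chance marks about 1 in 20, or 2.5 of 50. Trf was highest in AF1 peptide mouse 1 (229510 normalized counts against 194909 to 199640 in the other 3, gap 0.863 of the range). Slc40a1 was highest in AF1 peptide mouse 4 (1768 against 1347.5 to 1415.5, gap 0.838). The other 4 were sums of marker genes. The Kupffer cell sum was lowest in AF1 peptide mouse 1 (gap 0.873) and the acute phase sum highest in it (gap 0.831), with the values given above. The red blood cell sum was highest in control mouse 4 (gap 0.883) and lowest in AF1 peptide mouse 1 (27445 against 49316 to 52047 in the other 3, gap 0.889).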

How the results depend on the processing

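Each member was refitted under 12 other settings and with each of the 8 mice left out. Of these 200 fits, 3 gave an unadjusted p value under 0.05, all with a mouse left out, and 6 turned the sign of a log2 fold change. Leaving out a mouse gave log2 fold changes of 0.42 to 1.15 for Hamp (1.04 without control mouse 1), -0.29 to 0.47 for Hamp2 (-0.18 without control mouse 4), -0.40 to -0.10 for Tfrc, -0.058 to 0.26 for Tfr2, -0.12 to 0.047 for Fth1, -0.048 to 0.17 for Ftl1, and called 0 to 1 members. Scaling to equal totals moved the median of all genes from -0.01 to -0.10 and Ftl1 to -0.0036. It called 129 genes higher and 769 lower instead of 506 and 484, and 0 listed iron genes higher instead of 1. Adding the 1.3-fold threshold left 286 genes higher and 304 lower and 0 listed genes lower. Leaving out a mouse called 285 to 732 genes higher and 255 to 876 lower, and 1 to 3 listed genes higher and 0 to 9 lower, the extremes being without control mouse 2 (285 and 255) and without AF1 peptide mouse 1 (732 and 876). Equal totals without mitochondrial genes gave 2 listed genes higher, and DESeq2 gave 1 lower. Without AF1 peptide mouse 1, the r of Hamp was 0.425 with Tfr2, -0.115 with Smad7 and -0.0716 with Hfe, and that of Slc40a1 with the Kupffer cell marker score was 0.773. The causes were not tested.

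The replicate numbers are shared by the groups but stand for different mice. Deviations of same-numbered mice correlated at -0.06 to 0.24, and 4 of 8 mice correlated best with their own number. The labels name no batch or cage, and whether same-numbered mice shared one was not tested. With the replicate block, 597 genes were higher and 647 lower, 2 listed iron genes were higher, and no member was called. Of the named listed genes, the block added Hmox1 (lower) and ended the calls of Smad1 and Acvr2a. Depth limits Bmp6 most, with 30 reads at the lowest. Whole liver does not separate cell types.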
